A study of Mus musculus with 8 samples.

Results

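Platelet-derived growth factor (PDGF) signalling was followed through its 6 genes in the mouse, the ligand genes Pdgfa, Pdgfb, Pdgfc and Pdgfd and the receptor genes Pdgfra and Pdgfrb. These 6 genes, chosen by name, were all among the 32780 genes to which the measured transcripts could be assigned. The ligands are secreted as disulfide-linked dimers that bind and pair the receptor tyrosine kinases PDGFRα and PDGFRβ, which then phosphorylate each other and recruit signalling proteins. PDGF-A and PDGF-B are trimmed inside the cell by proprotein convertases, whereas PDGF-C and PDGF-D are secreted with an inhibitory CUB domain that proteases remove outside the cell. PDGFRα is known from primitive endoderm, early mesoderm and mesenchyme, and PDGFRβ from the mural cells that wrap blood vessels.

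The RNA came from TC1 cells, a mouse embryonic stem cell line. One group of 4 libraries was made from cells before differentiation (day 0) and the other group of 4 from cells that had undergone 10 days of differentiation (day 10). All 8 libraries carried the wild-type genotype, total RNA was taken from dissociated cells, and no other allele, agent or culture condition is named. The labels call the day 10 cells only differentiated, and nothing says that the 4 libraries of a group are separate cultures. The p-values therefore rest on the spread among these libraries, and that spread may be technical. Neither dates nor batches are given, so effects of a batch and of the day cannot be told apart.

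Libraries held 11242568 to 15808039 estimated counts at day 0 and 13525255 to 17843651 at day 10, so depths overlapped. The 8 pluripotency markers, among them Pou5f1 and Nanog, summed to 2380 to 2743 CPM (counts scaled to a common library size) at day 0. At day 10 they summed to 184 to 249.1 CPM, and all 8 fell on counts. The smallest fall was that of Klf4, from 179 ± 9.81 to 157 ± 12.7 CPM (SD, n = 4 each). With day 10 set against day 0 over 15097 tested genes, edgeR's quasi-likelihood test called 82.1% at a Benjamini-Hochberg adjusted p under 0.05, 42.7% higher and 39.4% lower. A change of more than 2-fold was called in 41.4% of genes, 24.1% higher and 17.3% lower. All 6 PDGF genes were called, 5 higher and 1 lower, and 4 of them by more than 2-fold; with 82.1% of all genes called, being called does not set them apart. The CPM ranges of the 2 days did not overlap for all 6 members, which was also true of 77.9% of all tested genes, 40.8% of them higher and 37.2% lower as shares of all genes. On TPM, a scale of transcript abundance per transcript length, the median gene moved by 0.40 in log2 units against 0.06 on counts, and the split of calls went from 6449 higher and 5950 lower to 7864 higher and 4096 lower. Values on that scale are therefore also given relative to its median. Klf4 was higher at day 10 on log2(TPM + 1), by 0.24 (limma, adjusted p = 0.0195), or -0.16 relative to the median gene.

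The 4 genes that rose by more than 2-fold were Pdgfrb (22.0-fold), Pdgfc (14.9-fold), Pdgfd (5.56-fold) and Pdgfra (4.22-fold). Pdgfb rose 1.89-fold, and Pdgfa was the only member with a lower CPM at day 10. These are ratios of TMM-scaled counts. Log2 changes below are from the same edgeR fit and carry a standard error after the ± sign.

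**Figure D1:**
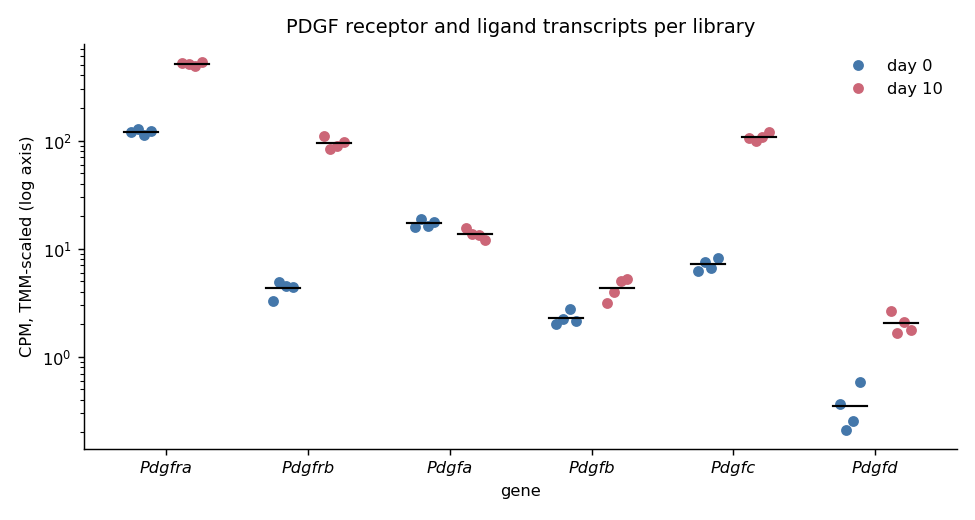
CPM of each PDGF gene in the 4 libraries of day 0 and the 4 of day 10, on a log axis, with points for libraries and bars for the means. The 2 days do not overlap for any of the 6 genes, as for 77.9% of all genes, and the separation is widest for Pdgfrb and narrowest for Pdgfa.

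Before the values, the sequences upstream of the genes that moved apart are shown, since on counts Pdgfa fell while Pdgfra and Pdgfc rose. The fall of Pdgfa was small and did not pass on TPM, as given below. Each run is the 250 bases before an annotated start, from RefSeq on GRCm38.p6, written 5′ to 3′ on the gene's strand, with capitals marking the GC box letters GGGCGG or their reverse complement. The coordinates are chr5:138994945-138995194 (minus strand) for Pdgfa, chr5:75152001-75152250 (plus strand) for Pdgfra and chr3:81036166-81036415 (plus strand) for Pdgfc.
Pdgfa upstream: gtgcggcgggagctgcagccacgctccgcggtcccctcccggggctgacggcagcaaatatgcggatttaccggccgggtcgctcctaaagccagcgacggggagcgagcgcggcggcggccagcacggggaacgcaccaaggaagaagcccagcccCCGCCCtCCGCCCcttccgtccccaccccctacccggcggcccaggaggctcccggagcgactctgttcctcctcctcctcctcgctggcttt
Pdgfra upstream: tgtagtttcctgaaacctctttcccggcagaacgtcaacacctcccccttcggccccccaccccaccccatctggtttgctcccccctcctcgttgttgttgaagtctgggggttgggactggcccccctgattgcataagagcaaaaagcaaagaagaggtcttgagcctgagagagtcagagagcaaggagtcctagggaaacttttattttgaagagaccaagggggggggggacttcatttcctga
Pdgfc upstream: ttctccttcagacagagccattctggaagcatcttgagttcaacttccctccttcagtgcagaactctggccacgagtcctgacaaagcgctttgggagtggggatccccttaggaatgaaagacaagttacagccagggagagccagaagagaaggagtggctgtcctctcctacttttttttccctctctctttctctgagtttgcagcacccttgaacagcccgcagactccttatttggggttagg
The Pdgfa run was 72.4% G and C and held 2 GC boxes. A further annotated Pdgfa start, not printed, had 66.4% and 1 GC box. The Pdgfra run had 54.4% and the Pdgfc run 50.8%, near the median of 52.4% over 32851 promoters. Neither held a GC box. On both strands neither held TATAAA, the TATA box. The same was true of CCAAT, the motif named for these letters. It was also true of the GATA motif, spelled AGATAA with TGATAA as its other form. Over all promoters of this length the GC box occurred in 32.7%, the TATA box in 12.4%, the CCAAT box in 33.8% and the GATA motif in 16.6%. The Pdgfd window, at 53.6% G and C, held 1 TATA box and 1 GATA motif. No window was available for Pdgfb or for Pdgfrb, the gene with the largest rise. These matches describe the letters in the windows only, and a link with the direction of change was not tested.

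Among the ligands, Pdgfa encodes the chain that binds PDGFRα alone and was the most abundant ligand transcript at day 0. The gene (ENSMUSG00000025856) lies at chr5:138976014-138997370 on the minus strand of GRCm38. Its CPM was 15.9, 18.9, 16.3 and 17.7 in the day 0 libraries and 15.4, 13.6, 13.3 and 12.1 in the day 10 libraries. The groups did not overlap, but the highest day 10 library came within a small distance of the lowest day 0 library. Pdgfa fell by 0.35 ± 0.12 on the log2 scale (edgeR, adjusted p = 0.0132). The call ended on TPM, where the level was 16.0 ± 2.41 at day 0 and 15.3 ± 1.26 at day 10 (SD, n = 4 each), the groups overlapped, and the log2 difference was -0.05 ± 0.13 (limma, adjusted p = 0.708) or -0.45 relative to the median gene.

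Pdgfc, which encodes a PDGFRα ligand that is secreted in latent form, rose most of the ligands. The gene (ENSMUSG00000028019) lies at chr3:81036416-81214040 on the plus strand. Its CPM was 6.27, 7.52, 6.65 and 8.18 at day 0 and 106.2, 98.2, 108.4 and 118.8 at day 10. Every day 10 library lay far above every day 0 library. The log2 change was 3.90 ± 0.10 (edgeR, adjusted p = 3.79e-13), and the level went from 4.11 ± 0.534 to 82.8 ± 5.0 TPM (SD, n = 4 each), a log2 difference of 4.04, or 3.64 relative to the median gene.

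Pdgfb encodes the ligand that binds both receptors and is known for drawing mural cells to endothelium. The gene (ENSMUSG00000000489) lies at chr15:79995874-80014977 on the minus strand. Its CPM was low on both days, at 2.03, 2.23, 2.78 and 2.16 at day 0 and 3.16, 3.95, 5.04 and 5.21 at day 10. The groups did not overlap, and 2 of the day 10 libraries stood above the other 2. The log2 change was 0.92 ± 0.24 (edgeR, adjusted p = 0.00239), and a change of more than 2-fold was not called (adjusted p = 0.681). On log2(TPM + 1) the difference was 0.97, or 0.57 relative to the median gene.

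Pdgfd, whose product is a latent ligand of PDGFRβ, had the fewest reads. The gene (ENSMUSG00000032006) lies at chr9:6168584-6378850 on the plus strand. Its estimated counts were 4, 3, 3 and 9 at day 0 and 36, 27, 29 and 32 at day 10, which corresponds to 0.369, 0.209, 0.253 and 0.589 CPM and to 2.65, 1.67, 2.12 and 1.79 CPM. No day 0 library reached the lowest day 10 library. The log2 change was 2.48 ± 0.38 (edgeR, adjusted p = 2.85e-05). With so few day 0 reads its size depended on the pseudocount of the TPM scale: the difference was 1.09 (0.69 relative to the median gene) with 1 TPM added and 2.48 with 0.1 TPM added.

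Of the receptors, Pdgfra, which encodes the receptor for the A, B and C chains, was the most abundant member on both days. The gene (ENSMUSG00000029231) lies at chr5:75152292-75198215 on the plus strand. Its CPM was 119.9, 129.1, 112 and 122.9 at day 0 and 521.5, 508.2, 485.1 and 528.3 at day 10. The libraries of each day lay close together and the days far apart. The log2 change was 2.08 ± 0.06 (edgeR, adjusted p = 1.68e-12). Its TPM went from 52.5 ± 1.37 to 303 ± 26.1 (SD, n = 4 each), a log2 difference of 2.50, or 2.11 relative to the median gene.

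Pdgfrb (ENSMUSG00000024620), which encodes the receptor for the B and D chains, rose most of the 6 genes. Its CPM was 3.32, 4.88, 4.55 and 4.45 at day 0 and 111.3, 84.1, 88.9 and 97.6 at day 10. Every day 10 library exceeded every day 0 library by an order of magnitude. The log2 change was 4.46 ± 0.13 (edgeR, adjusted p = 9.61e-13). In TPM the level went from 1.24 ± 0.196 to 37.2 ± 4.05 (SD, n = 4 each), a log2 difference of 4.09, or 3.69 relative to the median gene.

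**Figure D2:**
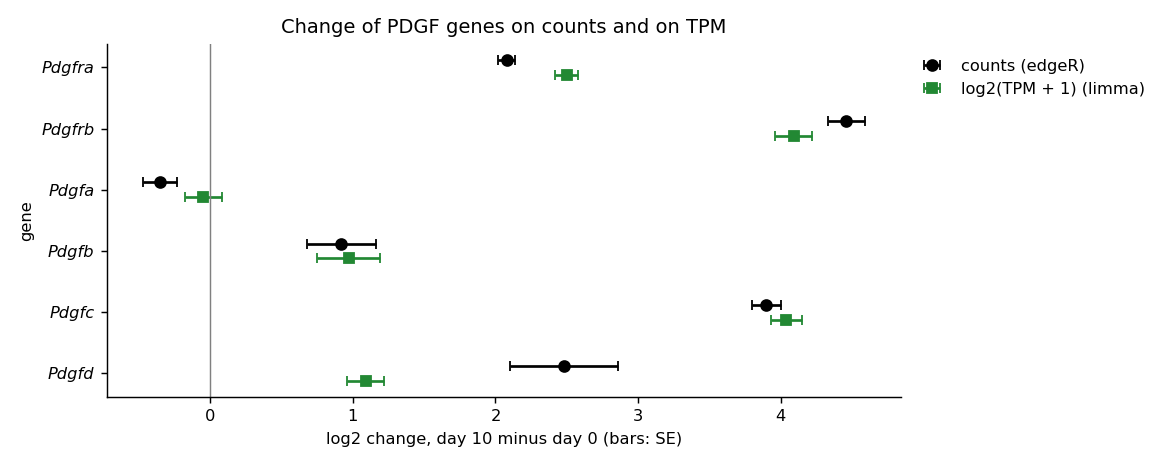
Log2 change from day 0 to day 10 of each PDGF gene on counts (edgeR, circles) and on log2(TPM + 1) (limma, squares), with bars for the standard error. Pdgfa lies at -0.35 on counts and -0.05 on TPM, the other 5 genes lie above 0 on both scales, and Pdgfd falls from 2.48 on counts to 1.09 on TPM.

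Per transcript length the order of the 6 genes changed between the days. At day 0 the mean TPM ran from Pdgfra (52.5) through Pdgfa (16.0), Pdgfc (4.11), Pdgfb (1.97) and Pdgfrb (1.24) to Pdgfd (0.202). At day 10 it ran from Pdgfra (303) through Pdgfc (82.8), Pdgfrb (37.2), Pdgfa (15.3) and Pdgfb (4.79) to Pdgfd (1.57). The ranges of neighbouring genes did not overlap on either day. In these sums over all transcripts of a gene, Pdgfra thus kept the first place and Pdgfd the last, while Pdgfc and Pdgfrb passed Pdgfa.

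The make-up of the ligand and receptor transcripts was then compared as shares of summed TPM, with a two-sided exact permutation test over the 70 possible assignments of libraries, whose smallest p is 0.0286. Of the 5 shares tested, 4 passed after Benjamini-Hochberg adjustment. At this smallest p a share can pass only if several reach it together. The 4 ligand shares are parts of the same sum, so a rise in any of them lowers others, and they are not separate results. Pdgfc made up 15.7, 17.4, 19.1 and 22.1% of ligand TPM at day 0 and 78.3, 79.2, 78.2 and 81.3% at day 10, a difference of 60.6 points (exact permutation p = 0.0286, adjusted p = 0.0357). The Pdgfa share was 76.8, 70.2, 70.8 and 69.3% at day 0 and 16.5, 15.4, 14.3 and 12.5% at day 10, with the same exact p. On TPM summed over each gene's transcripts, Pdgfa and Pdgfc therefore exchanged places, and in both cases the days were far apart. The Pdgfa level itself was 16.0 TPM at day 0 and 15.3 TPM at day 10. Most Pdgfc TPM was assigned to transcripts without the full coding length, described below. Pdgfc-201, which has that length, held 3.79 ± 4.66% of Pdgfc TPM at day 0 and 4.48 ± 1.62% at day 10 (SD, n = 4 each). Ligand shares were not compared for such transcripts alone, so the exchange is stated for gene sums only. Summed ligand TPM was 22.3 ± 3.06 at day 0 and 105 ± 4.82 at day 10 (SD, n = 4 each).

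The Pdgfb share of ligand TPM was 8.71 ± 2.43% at day 0 and 4.56 ± 1.17% at day 10 (SD, n = 4 each, exact permutation p = 0.0286, adjusted p = 0.0357), although the gene's own level rose. That call was lost without day 0 replicate 2 or without any 1 of the 4 day 10 libraries (adjusted p = 0.0714 in each case). The Pdgfd share was 0.94 ± 0.407% and 1.51 ± 0.331% and did not pass (exact permutation p = 0.0857, adjusted p = 0.0857).

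Pdgfra supplied 98.2, 97.3, 97.6 and 97.6% of receptor TPM at day 0 and 86.9, 90.8, 89.0 and 89.3% at day 10, a difference of -8.68 points (exact permutation p = 0.0286, adjusted p = 0.0357). The ratio of Pdgfra to Pdgfrb TPM went from 43.1 ± 8.33 to 8.23 ± 1.32, and summed receptor TPM from 53.7 ± 1.24 to 340 ± 24.5 (SD, n = 4 each). The size of the shift depended on which Pdgfra transcripts were counted, because several short ones, described below, weigh heavily in TPM. Restricted to transcripts with the complete receptor coding length, a choice made after seeing the data, Pdgfra measured 22.0, 25.2, 19.0 and 22.6 TPM at day 0 and 139, 139, 133 and 139 TPM at day 10. Its share of receptor TPM was then 94.7 ± 0.81% and 78.7 ± 1.65%, a difference of -15.9 points (SD, n = 4 each, exact permutation p = 0.0286). On that count too, Pdgfra lay above Pdgfa at day 0 and above Pdgfc at day 10 in all libraries.

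**Figure D3:**
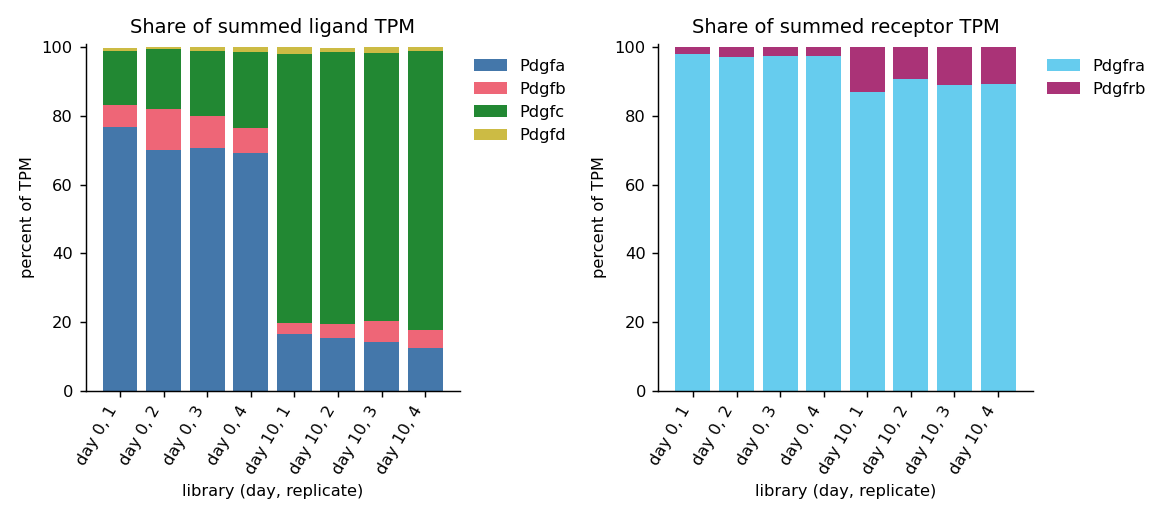
Share of each ligand gene in summed ligand TPM and of each receptor gene in summed receptor TPM, as stacked bars for each of the 8 libraries. Pdgfa makes up 69.3 to 76.8% of ligand TPM at day 0 and Pdgfc 78.2 to 81.3% at day 10, while Pdgfra makes up at least 86.9% of receptor TPM in every library.

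The 6 genes have 28 transcripts in GENCODE M21. Kallisto, the quantifier, divides reads that fit several transcripts between them by likelihood, so the division between similar transcripts is an estimate. Of the 15 transcripts that could be tested, none passed after adjustment. The smallest exact p of 0.0286 allows a call among 15 tests only if at least 9 transcripts reach it, so the absence of calls says little about whether shares changed. The exact permutation test gave an unadjusted p under 0.05 for 1, Pdgfra-208. That transcript, with a shorter coding length of 2370 bases, held 9.26, 13.1, 18.3 and 13.1% of Pdgfra TPM at day 0 and 8.6, 7.77, 6.31 and 8.51% at day 10 (exact permutation p = 0.0286, adjusted p = 0.171).

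Pdgfra-201, which encodes the complete receptor over 23 exons, held 34.6 ± 4.04% of the gene's TPM at day 0 and 41.8 ± 3.07% at day 10, and 63.0 ± 4.95% and 77.1 ± 2.37% of its estimated counts (SD, n = 4 each). Pdgfra-202 has the same coding length of 3267 bases and held 7.69 ± 2.55% and 3.79 ± 0.976% of TPM, and 14.5 ± 4.46% and 7.28 ± 1.77% of estimated counts. The fragment Pdgfra-209, only 615 bases long, held 16.8 ± 8.67% and 30.5 ± 4.19% of TPM but 2.06 ± 1.21% and 3.92 ± 0.705% of the gene's estimated counts. Pdgfra-207, a transcript of the non-stop decay class, held 17.9 ± 9.06% and 8.11 ± 1.67% of TPM, and 6.94 ± 3.42% and 3.25 ± 0.647% of estimated counts. On TPM all 4 reached an exact permutation p of 0.0571 and an adjusted p of 0.171. Counted in reads, the complete-receptor pair made up 77.6 ± 2.89% of the gene at day 0 and 84.3 ± 1.66% at day 10, so most Pdgfra reads belonged to it on both days.

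**Figure D4:**
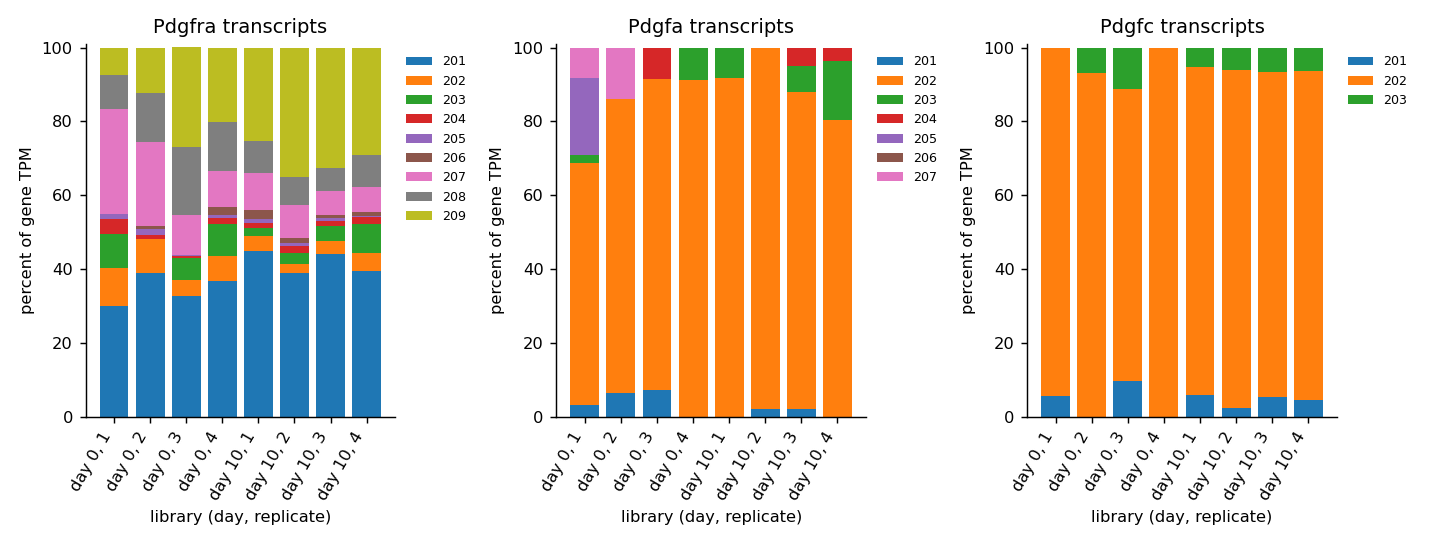
Share of gene TPM held by each transcript of Pdgfra, Pdgfa and Pdgfc, as stacked bars for each of the 8 libraries, with transcripts keyed by the number after the gene name. Pdgfra is divided among many transcripts, none of which passed the adjusted test, whereas Pdgfa-202 and Pdgfc-202 hold most of their genes in every library.

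Alternative exons that change the reading frame's end are known in the ligand genes. In Pdgfa, 1 exon adds a basic tail that holds the protein at the cell surface and matrix, and in Pdgfc the annotation holds an exon with an early stop codon. Both exons are printed because the ligand transcripts are told apart by them, with the stop codon in capitals. They lie at chr5:138978622-138978690 (minus strand, 69 bases, exon 6 of Pdgfa-201) and chr3:81131018-81131076 (plus strand, 59 bases, exon 2 of Pdgfc-202) on GRCm38.
Pdgfa alternative exon: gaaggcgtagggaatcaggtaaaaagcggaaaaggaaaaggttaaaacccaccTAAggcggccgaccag
Pdgfc alternative exon: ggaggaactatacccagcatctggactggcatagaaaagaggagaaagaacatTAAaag
Pdgfa-201, the only transcript that holds the Pdgfa exon, received 5.5, 14.0, 10.8 and 0 estimated counts at day 0 and 0, 3.4, 2.8 and 0 at day 10. Such counts are too few for a comparison. Pdgfa-202, which lacks the exon, held 80.2 ± 10.9% of the gene's TPM at day 0 and 89.0 ± 7.48% at day 10 (SD, n = 4 each, exact permutation p = 0.2, adjusted p = 0.5). The Pdgfa reads were thus assigned mostly to the form without the tail on both days.

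For Pdgfc, most reads were assigned to Pdgfc-202, a transcript of the nonsense-mediated decay class with a coding length of only 171 bases. It held 91.7 ± 8.82% of the gene's TPM at day 0 and 89.5 ± 1.64% at day 10 (SD, n = 4 each, exact permutation p = 0.657, adjusted p = 0.758), or 352 and 5914 estimated counts over the 4 libraries of each day. Pdgfc-201, with the full coding length of 1035 bases, received 14.2 and 370. These transcripts differ both in the 59-base exon and in the start of the first exon, and the tables hold no junction counts, so which of these features the division follows cannot be told apart. The rise of Pdgfc summed over its transcripts is therefore not a measure of the transcript with the full coding length alone.

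In Pdgfd, Pdgfd-203, which lacks exon 6, received 5.24 estimated counts at day 0 and 84.6 at day 10, and Pdgfd-201 received 12.1 and 33.9. The gene was under the 20 counts per library set for testing. Pdgfrb was almost entirely Pdgfrb-201, at 98.4 ± 1.95% and 98.3 ± 3.35% of TPM. Pdgfb-201 held 57.8, 27.3, 75.4 and 57.4% of Pdgfb TPM at day 0 and 55.9, 61.6, 44.9 and 43.7% at day 10, so the days overlapped widely for this gene of few reads. M21 also places an antisense gene over each of Pdgfa, Pdgfb, Pdgfc and Pdgfra, and since the use of strand is not stated, reads of the 2 strands cannot be told apart there.

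Beyond the 6 genes, 71 genes that act around the PDGF pathway were examined in 5 lists. Among the 69 tested genes 35 rose, 22 fell and 12 failed to pass, and the median log2 change was 0.31 against 0.06 over all genes. On the TPM scale 44 rose and 12 fell. The share of called genes was close to the 82.1% of all genes. For the counts in each list below, 42.7% of all tested genes were called higher and 39.4% lower.

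Transcripts for proteins that activate or bind the ligands mostly rose: 10 of 12 genes were higher and 2 lower, with a median of 2.60. Nrp1, a co-receptor, went from 1.16 ± 0.119 to 454 ± 85.0 CPM (SD, n = 4 each), a log2 change of 8.59 ± 0.19 (edgeR, adjusted p = 3.74e-12). Thbs1, which encodes the matrix protein thrombospondin, rose by 4.92 on the log2 scale. Of 4 proprotein convertase genes, 3 rose, Pcsk5 by 4.74, Furin by 2.37 and Pcsk7 by 0.63, and Pcsk6 fell by 3.18. Among genes of proteases reported to cleave the latent ligands, Plat (tissue plasminogen activator) rose by 1.59 and Plau (urokinase) by 5.62. St14 (matriptase) fell by 0.99 on counts (edgeR, adjusted p = 0.000453). On log2(TPM + 1) the St14 difference was -0.26, or -0.65 relative to the median gene, and did not pass (limma, adjusted p = 0.254). These 3 protease genes, Furin and Pcsk7 were singled out after their values were seen.

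Of 24 genes for receptor-proximal signalling proteins, 13 rose and 4 fell, with a median of 0.41. The adaptor genes split: Gab2 rose by 4.84, Grb10 by 3.02 and the phosphatidylinositol 3-kinase subunit gene Pik3r1 by 2.09, whereas Gab1 fell by 1.72. Of 14 RAS-MAPK and AKT genes, 4 rose and 7 fell, with a median of -0.16. Hras fell by 1.40 and Map2k1, which encodes a kinase of the MAPK cascade, by 1.16. Of 14 genes that attenuate receptor signals, 5 rose and 8 fell, with a median of -0.32. The feedback inhibitor genes Spry4 and Spry2 fell by 2.44 and 1.28, and the phosphatase gene Ptpn2 fell by 1.01. The RAS inhibitor gene Nf1 rose by 1.58.

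**Figure D5:**
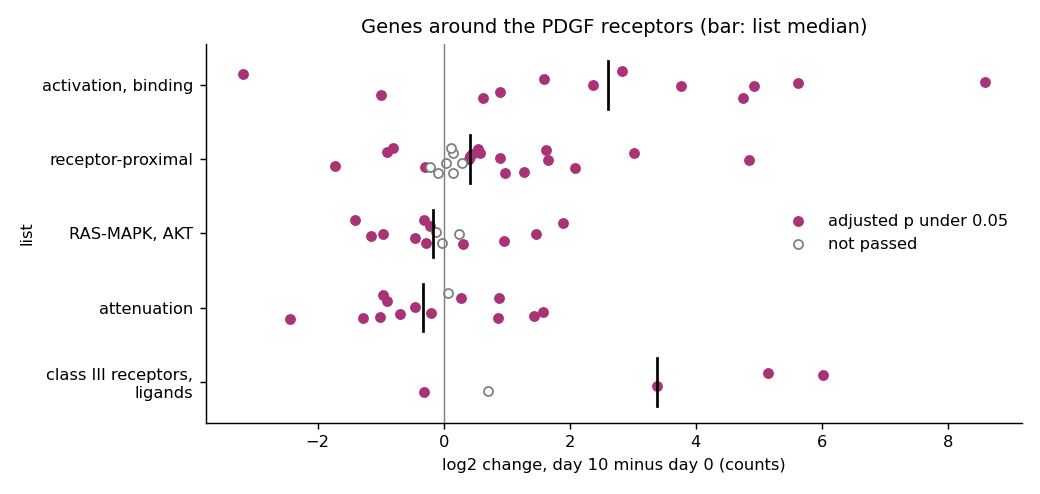
Log2 change from day 0 to day 10 (edgeR) of every tested gene in the 5 pathway lists, with 1 point per gene, filled where it passed the test, and a bar at each list's median. The median is 2.60 for ligand activation and binding, 0.41 for receptor-proximal signalling, -0.16 for RAS-MAPK and AKT, -0.32 for attenuation and 3.38 for class III receptors and their ligands.

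Pdgfra and Pdgfrb belong to the class III receptor tyrosine kinases, whose other genes and ligands were measured as a list of 7, with 5 tested, 3 higher and 1 lower. The kinase receptor Csf1r rose from 0.559 ± 0.265 to 36.3 ± 12.3 CPM (SD, n = 4 each) and the ligands Kitl and Csf1 rose by 5.14 and 3.38 on the log2 scale. Kit, which encodes the stem cell factor receptor, fell by 0.32 on counts (edgeR, adjusted p = 0.0367), but its difference was 0.09 on TPM (limma, adjusted p = 0.664), or -0.31 relative to the median gene. Flt3 and Il34 had too few counts to be tested.

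The genes whose profile over the 8 libraries lay nearest to a member were named by Euclidean distance between mean-centred log2 CPM values, among 14110 protein-coding genes. This distance is set mostly by the difference between the days. For Pdgfra they were Gli3 (0.133), Efnb2 (0.155) and Stxbp5 (0.171), and for Pdgfrb they were Plxna2 (0.227), Pde4b (0.267) and Plxnc1 (0.279). For Pdgfc the distances were 0.203 to Cdk14 and 0.317 to both Tek and Tdrd7. For Pdgfa they were 0.14 to Bcar1, 0.184 to Trip4 and 0.186 to Akap10. Pdgfb and Pdgfd had no neighbour as near, the nearest being Zfp455 at 0.32 and Fes at 0.44.

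Markers of cell types known to express PDGF genes mostly rose. For the counts of markers here and below, 42.7% of all tested genes were called higher and 39.4% lower. In bulk RNA, more cells of a type and more RNA per cell cannot be told apart. The part of these markers in the changes above was not tested. Beside Pdgfrb, 11 of 12 mural cell markers rose, and their sum was at most 165.2 CPM at day 0 and 625.2 to 952.5 CPM at day 10. Acta2, the largest of them at day 10, measured 428 ± 102 CPM on that day (SD, n = 4). Kcnj8, a pericyte potassium channel gene, had no counts at day 0, and Rgs5 rose from 0.0635 ± 0.087 to 29.4 ± 4.68 CPM (SD, n = 4 each). Beside Pdgfra and Pdgfc, 9 of 10 fibroblast markers rose, and the sum of all 10 went from 701 to 792 CPM to 9590 to 16553 CPM. Fn1, the largest of them at day 0, made up nearly all of the day 0 sum. It measured 721 ± 43.1 CPM at day 0 and 4557 ± 787 CPM at day 10 (SD, n = 4 each). Col3a1 went from 0.65 to 2789 CPM. Beside Pdgfb, 11 of 12 endothelial markers rose and 1 fell, with sums of 143.1 to 186.9 CPM and 690.5 to 738.9 CPM.

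Day 0 cultures already held Pdgfra at 112 to 129 CPM, together with transcripts of extraembryonic endoderm genes. Gata6 measured 56.7 ± 3.62, Gata4 80.4 ± 4.86, Sox17 22.1 ± 3.96, Dab2 257 ± 18.3 and the endocytic receptor gene Cubn 451 ± 16.2 CPM at day 0 (SD, n = 4 each). Hnf4a was at 4.19 and Amn at 5.73 CPM at day 0. Afp and Ttr, genes of visceral endoderm, were at 0.0748 and 0.0953 CPM at day 0 and rose by 11.56 and 9.92 on the log2 scale (edgeR, adjusted p = 6.88e-07 and 4.21e-06). Of the 14 markers of this list, 9 rose, 2 fell and 3 did not pass, and the sums of 4443 to 5150 CPM and 3930 to 6177 CPM overlapped. Lama1, the largest of them at day 0 and 1 of those that fell, measured 2147 ± 199 CPM at day 0 and 1051 ± 407 CPM at day 10 (SD, n = 4 each). Of 12 cardiomyocyte markers, 11 were tested and all 11 rose, with sums of 73.4 to 92.6 CPM and 972 to 1614 CPM. Markers of megakaryocytes and platelets, cells known to store PDGF, summed to 0.369 to 1.11 CPM at day 0, with 5 of 8 at 0 counts, and to 20.3 to 30.6 CPM at day 10. Oligodendrocyte precursor markers, from cells in which Pdgfra is a classical marker, summed to 0.196 to 2.72 CPM at day 0, with Sox10 and Gpr17 at 0 counts, and to 6.79 to 9.26 CPM at day 10. Of its 6 genes 5 had too few counts to be tested, and the other, Cspg4, which is also on the mural list, rose from 0.848 ± 0.82 to 6.16 ± 1.38 CPM (SD, n = 4 each, edgeR, adjusted p = 0.000287).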

How the data were processed

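Total RNA of 4 day 0 and 4 day 10 TC1 libraries was quantified with kallisto (version given only as 1) per the submitters' processing notes, which also name DESeq2. Its transcript reference and genome build were not given in the sources used here. Estimated counts of each transcript were deposited by the authors without scaling, and the TPM values were deposited by the authors as scaled for effective length and to 1 common sum per library. Transcripts were matched to GENCODE M21 (GRCm38) by identifier without version: 117992 of 126126 (93.6%) matched, 98.4% of them with equal length, and the unmatched held 1.15 to 1.23% of counts. Coordinates are those of M21, not of the deposited tables.

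Estimated counts were summed per gene, rounded and fitted by robust quasi-likelihood with edgeR 4.0.16 under R 4.3.3 (TMM scaling, filterByExpr, and glmTreat for changes over 2-fold), over all 15097 genes passing the filter, with adjusted p under 0.05 as threshold; all 6 PDGF genes passed it. TPM was tested with limma 3.58.1 on log2(TPM + 1), which understates changes of low genes. Shares were tested by exact permutation, for transcripts of genes with at least 20 counts in every library and a mean share of at least 5%. Alternatives used DESeq2 1.42.0, limma-voom, other scalings, filters and pseudocounts, a transcript length offset, a replicate block and leaving out each library. The tests were checked on simulated data.

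The members and lists were chosen with earlier results of these data known. Named genes were all members, up to 3 members of each list with the smallest p in its main direction and 1 in the other, and the 3 nearest protein-coding genes of each PDGF gene, with 2 of the listed genes not reported here; others are marked where they appear, apart from the defining markers given beside a result. Reads are not independent molecules, so the errors cover these libraries only.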

Additional observations from a re-analysis of the deposited data

Results flagged for a closer look

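In 94 groups of 4 libraries, the gap of the highest or lowest library to its nearest neighbour was compared with Dixon's critical value, which chance passes in about 1 of 20 groups. The number found, 4, is no more than chance gives. In day 0 replicate 2, the short transcript Pdgfb-204 held 68.7% of Pdgfb TPM, against 15.6 to 23.1% in the other day 0 libraries; that library also had the highest Pdgfb TPM of its day, at 3.13, but not the highest Pdgfb CPM. In day 10 replicate 2, Pdgfrb-201 held 93.3% of Pdgfrb TPM, against 100% in each of the other day 10 libraries. The same library had the lowest level of 2 listed genes, with Csf1 at 35.0 CPM against 53.6 to 54.8 and Grb10 at 1304 CPM against 1470 to 1502.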

How the results depend on the processing

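Under 18 alternatives the log2 change ranged from 2.03 to 2.52 for Pdgfra, 4.09 to 4.80 for Pdgfrb, 3.83 to 4.31 for Pdgfc, 0.80 to 1.26 for Pdgfb and 1.09 to 2.86 for Pdgfd, all called. Pdgfa ranged from -0.45 to -0.05 and lost its call on log2(TPM + 1) and on log2(TPM + 0.1) (-0.06, limma, adjusted p = 0.711). With a transcript length offset on counts Pdgfa kept its call (-0.45, edgeR, adjusted p = 0.00787). The cause of this difference between settings was not tested. On log2(TPM + 1), 12 pathway genes were lower in place of 22, the difference of Kit turned to 0.09 and that of the endoderm marker Lamb1 shrank to -0.27 (adjusted p = 0.226). With a transcript length offset, Kit was at -0.29 (adjusted p = 0.13). Without single libraries, the Pdgfb share of ligands differed by -4.61 to -3.07 points where its call was lost. Differences in transcript share that had not passed changed sign: Pdgfrb-201 ranged from -0.94 to 1.56 points, positive without day 0 replicate 2 or 4 (0.408 each) or day 10 replicate 2 (1.56). Pdgfb-201 ranged from -12.0 to 3.98, and Pdgfc-202 from -6.38 to 0.534. A replicate block called 12298 genes against 12399 and all 6 PDGF genes, and among all tested list genes it called 128 against 127, losing none and gaining Sox17; the share tests were not blocked. The deviations of same-numbered libraries correlated at r = 0.03 to 0.049 across genes, under the 0.1 needed to treat the numbers as pairs, although every library correlated best with its own number. Depth limits Pdgfd and the rarer transcripts, whose shares rest on few reads.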
